A study of Mus musculus with 9 samples.

Results

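The genes described here are 10 components of serotonin signalling out of 34328 genes in the RefSeq gene table: 8 receptors (Htr1a, Htr1b, Htr1d, Htr2a, Htr3a, Htr4, Htr6 and Htr7), the transporter Slc6a4 and the synthesis enzyme Tph2. They were chosen by name, with earlier results of these data known. For each gene the calls of whole-genome bisulfite sequencing were summed per library in the 1000 bp on each side of the gene start, over the rest of the gene body, and in 1-kb tiles. The tissue was the nucleus accumbens, the ventral part of the striatum, taken as frozen punches from male C57BL/6J mice aged 8 weeks. There were 5 Control libraries (numbered 2, 3, 4, 5 and 8) and 4 Susceptible libraries (numbered 2, 3, 6 and 7). The labels attach the same treatment to all 9 samples, which is 10 daily defeats by an aggressive CD1 male. The handling of Control mice and the scoring behind the Susceptible label are therefore not given in the sources used here. Nothing in the labels says that animals were pooled, and each library was treated as 1 replicate, so p-values measure the spread between these libraries. The comparison asked whether CpG methylation differed between the Control and the Susceptible group.

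Serotonin is made from tryptophan in neurons of the raphe nuclei of the brainstem, where tryptophan hydroxylase carries out the rate-limiting step, and it reaches the nucleus accumbens through long axons. The transporter clears it from the extracellular space and is the target of common antidepressants. Receptors of the Htr1 family inhibit adenylyl cyclase, Htr2a acts through phospholipase C, Htr3a is a subunit of an ion channel, and Htr4, Htr6 and Htr7 stimulate adenylyl cyclase. Cell bodies that make serotonin lie outside the accumbens, so DNA from a punch comes mainly from the cells that receive it and from glia. In mammals, gene starts in CpG-dense sequence are usually unmethylated whether or not the gene is active, while most CpGs in gene bodies are methylated.

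Bisulfite reads a methylated cytosine and a hydroxymethylated one alike, so a level is the share of calls at CpGs read as either. Listed cytosines carried 10 calls or more. Strand disagreement, the mismatch between the strands of the same CpG relative to what binomial sampling gives (a value of 1), was 2.38 to 6.11 in 7 libraries, 18.4 in Control 5 and 19.7 in Control 8. These 2 Control libraries are therefore less exact than their calls imply, and many differences at the 10 genes are given with and without them. Differences in the marker and pathway lists, and in some tiles, are given with all libraries only. Start levels of 10 genes that mark striatal projection neurons averaged 8.09 ± 0.847% in Control (SD, n = 5) and 8.20 ± 0.497% in Susceptible (SD, n = 4). Their gene bodies averaged 52.7 ± 2.45% and 56.3 ± 4.76%, against a median body level of 84.9% over all genes. A punch mixes cell types, so a shift in the share of a cell type and a change of methylation within a type cannot be told apart in any value below.

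The starts of these genes differ in how many CpGs they hold, and the sequences that show this are given first. The promoter entries used here (RefSeq, GRCm38.p6) give a start for 8 of the 10 genes. They hold none for Htr3a and Htr4, for which only the gene bounds were at hand. The 250 bases before the start are printed 5′ to 3′ along the gene for 5 genes, with each CpG in capitals. Htr7 (chr19:36057361-36057610, minus strand) is the densest, Slc6a4 (chr11:76998347-76998596, plus strand) is also dense, and Tph2 (chr10:115185023-115185272, minus strand) is sparse. Htr1b (chr9:81633833-81634082, minus strand) is compared with the first of the Htr1d starts (chr4:136423274-136423523, plus strand), and the other Htr1d start (chr4:136424362-136424611, plus strand) is shown because it lies about 1 kb further on and is built differently.
Htr7: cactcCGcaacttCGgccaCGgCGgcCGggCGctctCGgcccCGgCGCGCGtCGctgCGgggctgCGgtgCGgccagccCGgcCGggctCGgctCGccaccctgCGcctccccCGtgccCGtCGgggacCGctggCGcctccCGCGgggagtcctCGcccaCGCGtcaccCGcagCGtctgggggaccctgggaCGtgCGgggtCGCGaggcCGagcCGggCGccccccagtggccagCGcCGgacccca
Slc6a4: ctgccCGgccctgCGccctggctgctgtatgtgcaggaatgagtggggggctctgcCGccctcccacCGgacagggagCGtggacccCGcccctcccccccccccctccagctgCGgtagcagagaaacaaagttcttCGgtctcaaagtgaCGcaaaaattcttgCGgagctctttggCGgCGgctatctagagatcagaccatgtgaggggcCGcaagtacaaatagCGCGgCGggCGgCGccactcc
Tph2: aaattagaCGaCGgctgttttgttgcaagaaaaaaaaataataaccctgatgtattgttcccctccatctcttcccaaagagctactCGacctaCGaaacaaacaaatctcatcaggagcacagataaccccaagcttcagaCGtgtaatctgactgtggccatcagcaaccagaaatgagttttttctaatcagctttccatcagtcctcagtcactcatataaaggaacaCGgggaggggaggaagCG
Htr1b: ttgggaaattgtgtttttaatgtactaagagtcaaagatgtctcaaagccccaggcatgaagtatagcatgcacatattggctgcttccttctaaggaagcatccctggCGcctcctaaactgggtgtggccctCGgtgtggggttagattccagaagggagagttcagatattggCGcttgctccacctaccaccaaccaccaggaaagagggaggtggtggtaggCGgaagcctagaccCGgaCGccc
Htr1d, first start: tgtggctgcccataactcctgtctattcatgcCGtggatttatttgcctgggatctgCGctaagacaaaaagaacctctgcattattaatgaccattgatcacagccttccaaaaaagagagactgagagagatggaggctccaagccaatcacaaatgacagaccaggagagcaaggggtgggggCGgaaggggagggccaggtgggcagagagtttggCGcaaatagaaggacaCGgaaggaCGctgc
Htr1d, further start: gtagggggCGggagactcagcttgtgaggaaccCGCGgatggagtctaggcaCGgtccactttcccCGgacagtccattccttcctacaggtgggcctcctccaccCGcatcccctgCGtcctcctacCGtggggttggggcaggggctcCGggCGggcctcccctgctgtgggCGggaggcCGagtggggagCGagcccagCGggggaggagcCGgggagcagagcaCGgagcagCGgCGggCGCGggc

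Among 32851 start entries of the RefSeq table the median number of CpGs in these 250 bases is 6, and 37.8% of entries hold 10 or more. The Htr7 sequence holds 41 CpGs with a G and C share of 82.0%, and its methylation level was 1.03 ± 0.552% in Control and 1.23 ± 0.479% in Susceptible (SD, n = 5 and 4). The Slc6a4 sequence holds 18 CpGs, of which 15 were listed, at 1.47 ± 2.29% and 1.09 ± 1.02%. The sequence before the first Htr6 start holds 23 CpGs and read 1.154 ± 0.425% and 2.02 ± 0.632%. No library exceeded 1.73% at the Htr7 sequence, 2.57% at that of Htr6 or 5.33% at that of Slc6a4.

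Sequences with the same number of CpGs differed in level. Htr1b and the first Htr1d start each hold 6 CpGs, yet Htr1b read 1.01 ± 1.01% and 0.649 ± 0.215%, while the first Htr1d start read 84.4 ± 19.7% and 84.4 ± 6.03%. Htr1a also holds 6 CpGs and read 9.70 ± 5.58% and 5.61 ± 3.25%, and Htr2a holds 4 and read 6.02 ± 5.38% and 8.90 ± 2.61%. Tph2 holds 7 and was intermediate, at 45.9 ± 14.0% in Control and 35.0 ± 6.94% in Susceptible. These sparse sequences rest on few calls, as few as 18 in a library at the first Htr1d start and 49 at Tph2. Without Control 5, the lowest library, the Control mean at the first Htr1d start was 93.0%, a difference of -8.61 points from Susceptible. Without Control 5 and 8 the Control mean was 90.7% there, 39.4% at Tph2 and 9.87% at Htr2a. The difference between groups was then -6.27 points at the first Htr1d start and -4.48 at Tph2, and it turned from 2.88 to -0.973 at Htr2a. It also turned at the printed Slc6a4 (-0.374 to 0.423) and Htr7 sequences (0.197 to -0.115).

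In the wider window of 1000 bp on each side the 10 genes spanned nearly the whole scale, with the CpG-richer gene end taken for Htr3a and Htr4. At the other end of Htr3a, which may be its start, the level averaged 66.4% over the libraries. Averaged over the 9 libraries, the level was 1.56% at Htr1b, 4.19% at Htr6, 4.32% at Htr1a, 7.11% at Slc6a4, 8.59% at Htr7, 15.2% at Htr2a, 26.8% at Htr4, 29.7% at Tph2, 50.2% at Htr1d and 89.0% at Htr3a. Over all gene starts, protein-coding and long noncoding RNA genes together, the median was 42.7%. Of them 36.0% lay under 10%, as did 5 of these 10. Neighbours in this order were not all distinct. Htr1a exceeded Htr6 in 4 of 9 libraries with a mean step of 0.135 points (SD 1.66), Htr7 exceeded Slc6a4 by 1.48 points (SD 4.08), and Tph2 exceeded Htr4 by 2.94 points (SD 9.19). The other steps were larger than their SD over libraries.

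**Figure D1:**
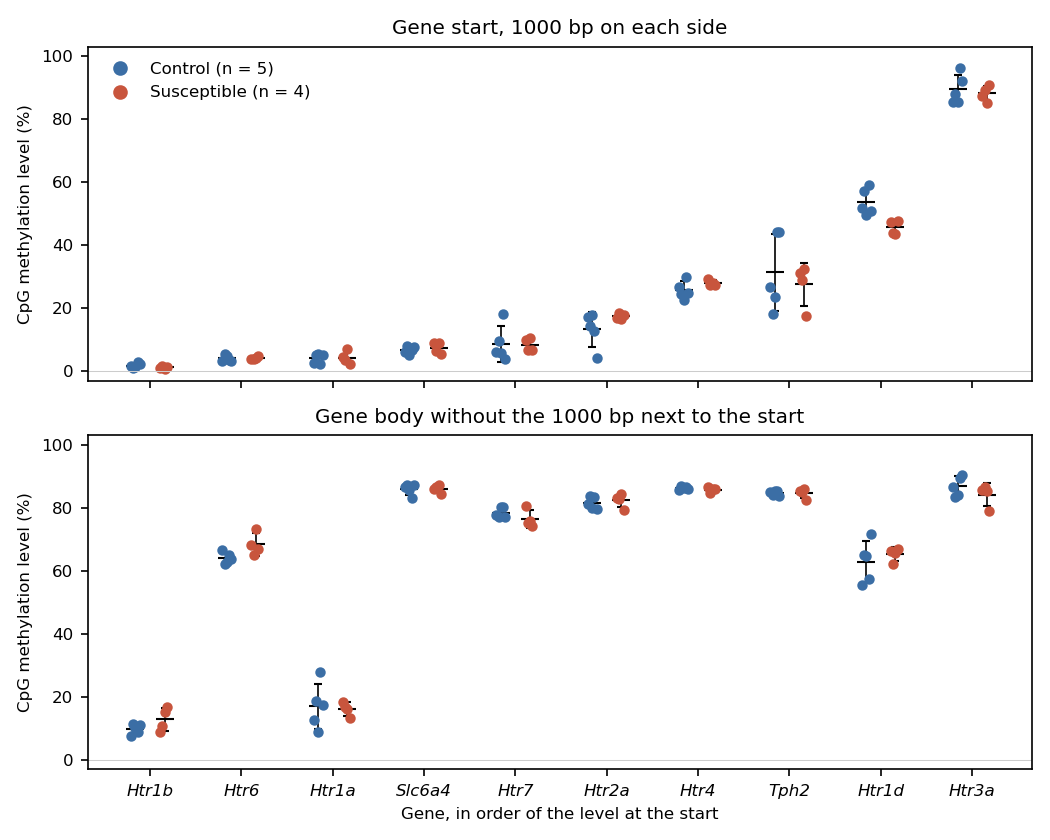
CpG methylation level in percent at the start (upper panel, 1000 bp each side) and in the gene body (lower panel) of the 10 genes, in order of the level at the start. For Htr3a and Htr4 the CpG-richer gene end stands in for the start. Each point is a library, 5 Control and 4 Susceptible, and bars are the group mean and SD; starts run from 1.56% at Htr1b to 89.0% at Htr3a, and the bodies of Htr1b and Htr1a lie far below the rest.

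Comparing the groups, no start among the 10 passed an adjusted p of 0.05 in the quasi-binomial model with limma-type moderation, fitted over 30878 gene starts, where the share called was 0%. The smallest adjusted p among the 10 was 0.970. At an unadjusted p under 0.05 the model marked 1 of the 10, Htr1d, against 4.82% of all starts. Groups did not overlap at 1 of the 10, again Htr1d, against 1.89% of all starts (0.942% with Susceptible lower, 0.946% with Susceptible higher). Another model, limma on logit levels, also called 0 starts. Differences of group means were negative at 5 genes and positive at 5, with a median size of 1.03 points against 1.27 points over all starts.

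**Figure D2:**
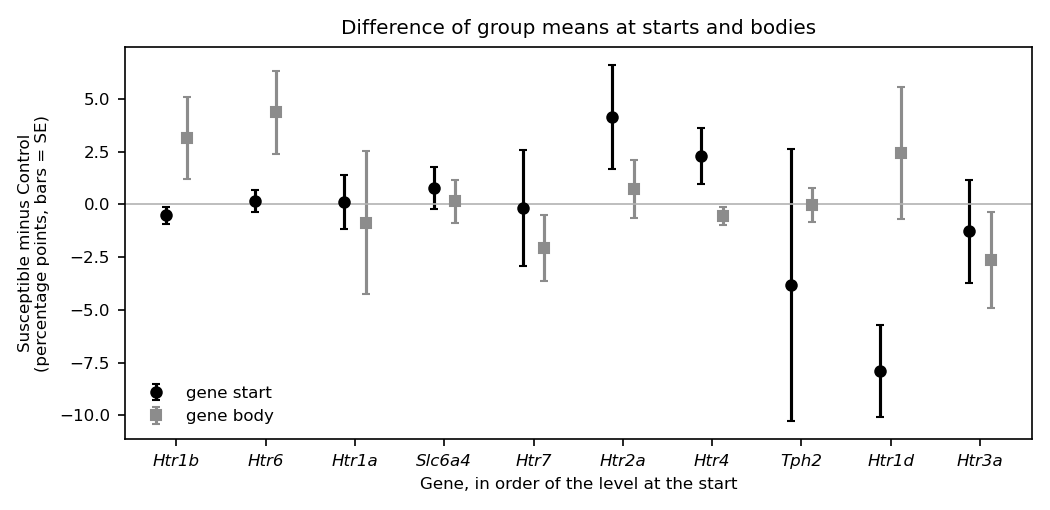
Difference of group means, Susceptible minus Control, in percentage points at the start (black) and in the body (grey) of the 10 genes; bars are the SE of the difference. The Htr1d start lies lowest at -7.92 points, the Htr6 body highest at 4.36 points. For Htr3a and Htr4 the CpG-richer gene end stands in for the start.

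Among the receptors, Htr1a, an autoreceptor on serotonin neurons that also sits on their targets, had a start level of 2.74, 5.36, 5.65, 2.35 and 5.28% in Control 2, 3, 4, 5 and 8 and of 4.48, 3.504, 7.25 and 2.31% in Susceptible 2, 3, 6 and 7. The groups overlapped fully, at 4.28 ± 1.59% and 4.39 ± 2.11%. In bins of 500 bp the mean level fell from 9.25% just before the start to 2.09% at 500 to 1000 bp after it. The single-exon receptor genes Htr1a and Htr1b are short, at 4441 and 5542 bp, and had the lowest bodies of the set. The Htr1a body read 12.5, 18.5, 8.70, 27.8 and 17.2% in Control and 18.4, 16.7, 15.9 and 13.3% in Susceptible, with Control 5 the highest.

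Htr1b, the terminal autoreceptor, had the lowest start. It read 1.58, 0.957, 1.27, 2.88 and 2.27% in Control and 1.06, 1.65, 0.894 and 1.46% in Susceptible. The highest Control values came from Control 5 and Control 8, and without those 2 libraries the group difference of -0.523 points was -0.000758. A long noncoding RNA gene, D430036J16Rik, overlaps the Htr1b start, so calls there belong to both. From 500 bp before to 2000 bp after the start the mean level was 1.28 to 2.99% in every 500-bp bin.

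The body of Htr1b read 7.60, 11.2, 10.03, 8.63 and 10.9% in Control and 8.89, 10.7, 15.1 and 16.6% in Susceptible. Susceptible 6 and 7 were above every other library, while Susceptible 2 and 3 lay within the Control range. The means were 9.67 ± 1.53% and 12.8 ± 3.63%, a difference of 3.15 points (SE 1.94, exact permutation p = 0.159, two-sided). Without Susceptible 7 it was 1.89 points. The same 2 libraries stood out in the tile chr9:81631001-81632000, 2332 bp into the gene, at 29.9 and 33.6% against 14.0 to 19.4% in the other 7.

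Htr1d, another inhibitory receptor, had the widest gap between groups at its start. The level was 51.8, 57.2, 49.6, 59.1 and 50.8% in Control and 47.5, 44.0, 43.8 and 47.9% in Susceptible. Every Susceptible library lay below every Control library. The means were 53.7 ± 4.21% and 45.8 ± 2.20%, a difference of -7.92 points (SE 2.18, exact permutation p = 0.0159, two-sided, the smallest this design can give). In the quasi-binomial model with limma-type moderation the unadjusted p was 0.0193 and the adjusted p 0.970. Without Control 5 and Control 8 the difference was -7.06 points (unadjusted p = 0.0249 in the same model).

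The Htr1d window joins the 2 kinds of sequence printed above. From 1000 bp before to 500 bp after the first start, 20 CpGs averaged 72.8 ± 9.95% in Control and 72.4 ± 5.98% in Susceptible. From 500 to 1000 bp after it, where the dense sequence begins, 20 CpGs read 2.04, 1.93, 1.72, 42.9 and 2.94% in Control and 3.52, 2.95, 1.30 and 6.87% in Susceptible. The 42.9% of Control 5 rests on 21 calls, the fewest of any library. With all 9 libraries the groups overlapped in both stretches. Without Control 5 and 8 the methylated stretch read 79.98 ± 1.38% in the 3 remaining Control libraries, each of which was above all 4 Susceptible libraries, a difference of -7.58 points. The dense stretch then read 1.90 ± 0.161% in Control and 3.66 ± 2.34% in Susceptible. The share of the window's calls that fell in the methylated stretch was 65.1, 70.4, 60.3, 93.5 and 78.7% in Control and 60.5, 59.8, 55.6 and 71.4% in Susceptible (73.6 ± 13.0% and 61.9 ± 6.74%, exact permutation p = 0.159). That gap of 11.7 points was 6.76 points without Control 5 and 3.41 points without Control 5 and 8.

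A level summed over the window weighs each stretch by its calls, and the part of this share in the group difference was not tested. At the 5 CpGs listed in all 9 libraries, out of 40 in the window, the difference was 3.93 points, and with 2000 bp on each side it was 1.52 points, both with Susceptible higher. With 500 bp on each side it was -1.20 points. Around the further start the level was 6.56 ± 2.26% and 7.59 ± 1.13% (exact permutation p = 0.476). The body of Htr1d read 62.8 ± 6.57% and 65.2 ± 2.15%, a difference of 2.43 points that was 0.564 without Control 2 and 4.64 without Control 8.

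**Figure D3:**
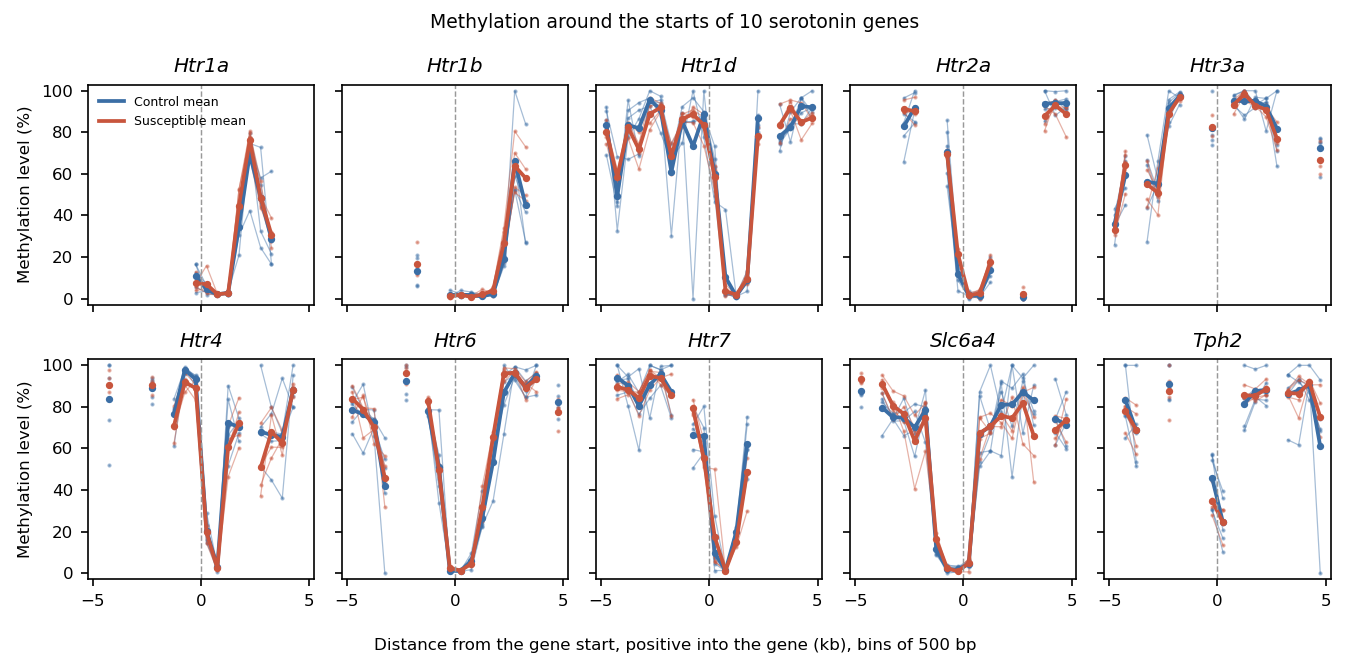
CpG methylation level in percent against distance from the gene start in kb, positive into the gene, in bins of 500 bp; thin lines are libraries, thick lines group means, and gaps are bins with too few calls. For Htr3a and Htr4 the CpG-richer gene end stands in for the start. At Htr1d the level falls from 86.3% just before the first start to 1.46% at 1000 to 1500 bp after it.

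Htr2a, the receptor through which classical hallucinogens act, read 17.2, 14.5, 17.9, 12.9 and 4.29% at its start in Control and 17.0, 18.5, 16.7 and 17.8% in Susceptible. Control 8 lay far below the rest, and without it the difference of 4.14 points (SE 2.47) was 1.88 points. The 500 bp after the start averaged 1.53%. In the tile chr14:74640001-74641000, which spans the end of the neighbouring noncoding gene Gm41210 and lies mostly before the start, the level was 17.5, 17.3, 12.5, 18.4 and 6.93% in Control and 21.1, 20.4, 24.3 and 22.1% in Susceptible. The groups did not overlap there, with a difference of 7.40 points (adjusted p = 0.997 in the quasi-binomial model with limma-type moderation) that was 6.16 points without Control 5 and 8.

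Htr3a had the highest level among the receptors chosen here, with the CpG-richer end taken as its start. Of the receptors in the wider pathway list, the starts of Htr2b and Htr3b also averaged 91.7 and 85.3%. Those of Htr1f, Htr2c, Htr5a and Htr5b averaged 5.11 to 31.2%. The strand of Htr3a is not given in the sources used here, so both of its ends were measured. The CpG-richer end, at the lower coordinate, held 27 CpGs and read 85.5, 88.2, 85.5, 96.3 and 92.1% in Control and 87.4, 89.4, 85.2 and 91.0% in Susceptible. The other end, with 25 CpGs, read 68.1 ± 10.6% and 64.2 ± 10.6%, a difference of -3.86 points that was 0.0705 without Control 5, 1.45 without Susceptible 7 and 2.73 without Control 5 and 8. Neither end was unmethylated in any library, and the noncoding gene Gm32335 overlaps the first of them. The body averaged 86.7 ± 3.15% and 84.1 ± 3.56%, a difference of -2.64 points that was -0.879 without Susceptible 7.

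Htr4, a receptor that raises cyclic AMP and is found on striatal neurons, had a CpG-richer end at 26.8, 24.5, 22.7, 30.0 and 25.0% in Control and 29.5, 27.4, 28.0 and 27.4% in Susceptible. The means were 25.8 ± 2.77% and 28.1 ± 0.954% (exact permutation p = 0.143). The level there is a mixture, from 91.4% in the 500 bp outside the gene to 2.76% at 500 to 1000 bp inside it. The gene spans 179482 bp, and its body was the least variable of the set, at 86.3 ± 0.529% and 85.7 ± 0.732%.

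Htr6, a receptor concentrated in the striatum and the target of antipsychotic drugs, had a start of 3.31, 5.39, 4.94, 3.502 and 3.42% in Control and 3.92, 3.85, 4.30 and 5.06% in Susceptible. This was the best-covered window of the 10, with 3522 to 6370 calls over 120 CpGs. Its difference was 0.170 points (SE 0.518). A larger difference was seen deeper in the gene. The body read 66.4, 62.2, 62.8, 64.9 and 63.6% in Control and 68.2, 65.1, 73.4 and 66.7% in Susceptible, with Susceptible 6 the highest.

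The Htr6 bodies averaged 64.0 ± 1.72% and 68.3 ± 3.59%, a difference of 4.36 points (SE 1.95, exact permutation p = 0.0317). In the quasi-binomial model with limma-type moderation the unadjusted p was 0.0165 and the adjusted p 0.99998. Of the 10 bodies this was the 1 at an unadjusted p under 0.05, against 3.89% of 29475 bodies, and 0 were called, as over all bodies (0%). Groups did not overlap at 0 of 10 bodies, against 1.34% (0.57% with Susceptible higher, 0.77% lower). Without Susceptible 6 the difference was 2.68 points, and with the start included it was 2.65 points.

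Within Htr6 the tile chr4:139073001-139074000, centred 2070 bp after the start, had the smallest p of all tiles at these genes. It read 64.9, 70.0, 66.2, 56.8 and 51.0% in Control and 76.8, 74.6, 80.7 and 79.9% in Susceptible. Every Susceptible library exceeded every Control library, and the lowest values were those of Control 5 and 8. The means were 61.8 ± 7.70% and 78.0 ± 2.82%, a difference of 16.2 points (SE 3.72, unadjusted p = 0.000774 and adjusted p = 0.997 in the quasi-binomial model with limma-type moderation). Without Control 5 and 8 it was 11.0 points. The tile lies beyond the unmethylated start, past a bin from 1000 to 1500 bp that averaged 28.8%, and rests on up to 13 CpGs and 234 to 575 calls per library.

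Htr7, a receptor linked to circadian rhythm and mood, read 6.11, 9.51, 5.71, 18.1 and 3.87% at the start in Control and 10.1, 6.66, 10.5 and 6.73% in Susceptible. Control 5 was highest and Control 8 lowest, so the Control libraries spanned more than the Susceptible ones (SD 5.67 against 2.074 points). The RefSeq start of the promoter printed above lies inside the gene bound used here. Centred on it, the window read 12.3 ± 5.77% and 8.81 ± 1.83%, a difference of -3.47 points that was -1.12 without Control 5. The dense stretch itself, 500 to 1000 bp into the gene, held 74 CpGs and averaged 1.29%, from 0.880 to 1.76% over the libraries.

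Just beyond that stretch, the Htr7 tile chr19:36056001-36057000 read 32.4, 33.1, 30.8, 35.7 and 27.4% in Control and 30.7, 26.2, 21.2 and 17.1% in Susceptible. Susceptible 6 and 7 were lowest, and Susceptible 2 lay inside the Control range. The means were 31.9 ± 3.07% and 23.8 ± 5.92%, a difference of -8.10 points (SE 3.26, exact permutation p = 0.0317). The adjusted p was 0.997 in the quasi-binomial model with limma-type moderation. Without Susceptible 7 it was -5.86 points. The body averaged 78.4 ± 1.62% and 76.4 ± 2.77%.

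Slc6a4, the serotonin transporter, is a gene of raphe neurons, and its start was low in the accumbens. It read 6.05, 7.97, 5.31, 6.71 and 7.77% in Control and 9.07, 6.46, 8.98 and 5.68% in Susceptible. The groups overlapped, at 6.76 ± 1.13% and 7.55 ± 1.74%, a difference of 0.785 points (SE 1.004, exact permutation p = 0.397). It was 0.277 points without Susceptible 2 and 1.41 points without Susceptible 7. The stretch of low level ran from 1000 bp before to near 500 bp after the start, with bin means of 2.18, 1.43 and 4.72%. The next 500 bp averaged 67.2%. The rise began within the last of the low bins, where CpGs from 455 to 486 bp after the start averaged 9.45 to 31.5%.

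At that edge, the Slc6a4 tile chr11:76999001-77000000 read 56.3, 34.7, 47.2, 41.6 and 42.5% in Control and 62.7, 56.1, 51.7 and 44.7% in Susceptible. The ranges overlapped (44.5 ± 7.98% and 53.8 ± 7.58%, exact permutation p = 0.143). Deeper in the gene, the tile chr11:77011001-77012000 read 81.9, 70.2, 79.8, 72.1 and 74.2% in Control and 82.6, 87.2, 82.9 and 82.6% in Susceptible. All Susceptible libraries were above all Control libraries there, although Control 2 came within 1 point of the lowest. The difference was 8.19 points with an adjusted p of 0.997 in the quasi-binomial model with limma-type moderation. The Slc6a4 body stood at 85.9 ± 1.79% and 86.0 ± 1.28%.

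Tph2, the brain form of tryptophan hydroxylase, had the most variable start of the 10. It read 26.7, 18.1, 23.7, 44.4 and 44.4% in Control and 31.1, 29.2, 32.7 and 17.5% in Susceptible. The highest values were those of Control 5 and Control 8, the libraries of most strand disagreement. The means of 31.5 ± 12.2% and 27.6 ± 6.87% differed by -3.83 points (SE 6.46, exact permutation p = 0.556), and without those 2 libraries the difference was 4.81 points in the opposite direction. Leaving out 1 library gave -7.17 points without Control 3 and -0.472 points without Susceptible 7. The window holds 18 CpGs with 250 to 566 calls per library, the fewest of the 10.

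No unmethylated stretch was found at the Tph2 start: the 500 bp before it averaged 41.0%, the 500 bp after it 24.6%, and from 1000 to 1500 bp inside the gene the level was 83.4%. The gene spans 106382 bp, and its body read 84.6 ± 0.697% and 84.6 ± 1.53% (difference -0.0332 points, SE 0.827). That difference ran from -0.470 without Susceptible 6 to 0.704 without Susceptible 7. Its lowest tile outside the start, chr10:115171001-115172000, read 41.2 ± 11.7% and 44.2 ± 9.95%. The body rested on 18334 to 35265 calls per library.

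Receptors were then set beside the transporter and the synthesis enzyme. At starts, the median over the 8 receptors was 11.97% averaged over libraries, above Slc6a4 at 7.11% and below Tph2 at 29.7%. The receptor median minus the mean of Slc6a4 and Tph2 was -6.46 ± 6.44 points (SD, n = 9), at -7.96 ± 8.19 in Control and -4.59 ± 3.59 in Susceptible. Its size depended on the window, at -0.593 points with 500 bp and -14.2 points with 2000 bp on each side. It was -21.3 in Control 8 and 0.646 in Susceptible 7, which are the extremes. Without Control 8 the Control mean was -4.62 points, level with Susceptible, and without Control 5 and 8 it was -2.81 ± 1.82 points (SD, n = 3), so that Susceptible was the lower group. Without Susceptible 7 the Susceptible mean was -6.34 points. Slc6a4 fell within the group of unmethylated receptor starts and Tph2 outside it, so the 2 genes do not form a class apart from the receptors.

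Gene bodies gave a steadier contrast, of -12.8 ± 1.42 points in Control and -13.0 ± 1.90 in Susceptible. The receptor median was 72.4% in both groups. The 4 lowest bodies were those of Htr1b (11.1% over the 9 libraries), Htr1a (16.6%), Htr1d (63.9%) and Htr6 (65.9%). The other bodies, Htr7 at 77.5%, Htr2a at 81.9%, Tph2 at 84.6%, Htr3a at 85.6% and Slc6a4 and Htr4 at 86.0%, were near the median of all bodies, 84.9%. Steps from Htr1b to Htr1a and from Htr1d to Htr6 were smaller than their SD over libraries. In the upper range the order of Tph2, Htr3a, Slc6a4 and Htr4 was likewise not resolved.

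In 1-kb tiles from 5000 bp before to 5000 bp after the genes, 392 of 652 had enough calls in every library. By the quasi-binomial model with limma-type moderation 0 of them were called, as over all 1041809 tiles (0%). At an unadjusted p under 0.05 there were 13, or 3.32%, against 4.38% of all tiles. Groups did not overlap in 8, or 2.04%, against 1.56%. In 5 of them, or 1.28%, Susceptible was higher, against 0.598% of all tiles, and in 3, or 0.765%, lower, against 0.96%. Whether these shares differ from those of all tiles was not tested. Of the 13, 5 were among the 42 tiles of Htr2a and 3 among the 24 of Htr6. Htr1a, Htr1b, Slc6a4 and Tph2 held 0, of 5, 8, 41 and 91 tiles.

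Of the tiles with the smallest p of their gene, chr4:136431001-136432000 in Htr1d read 35.9 ± 10.1% and 51.4 ± 5.40%, chr14:74655001-74656000 in Htr2a 61.2 ± 8.89% and 72.7 ± 5.54%, and chr18:62334001-62335000 in Htr4 70.2 ± 6.49% and 81.2 ± 3.77%. In all 3 the lowest value was that of Control 8. Without Control 5 and 8 the differences of 15.4, 11.4 and 10.9 points were 10.1, 5.90 and 6.39 points. The Htr4 tile chr18:62489001-62490000 read 89.5, 89.7, 87.2, 66.1 and 64.8% in Control and 90.6, 93.1, 90.2 and 90.7% in Susceptible. Its difference of 11.7 points was 2.33 points without those 2 libraries.

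Htr3a held 2 tiles whose groups did not overlap. In chr9:48906001-48907000 the level was 95.4, 95.7, 95.5, 95.3 and 100% in Control and 93.8, 92.0, 88.5 and 89.9% in Susceptible. In chr9:48894001-48895000, outside the gene, it was 29.4, 27.6, 23.0, 29.8 and 29.8% in Control and 35.6, 37.6, 30.4 and 36.5% in Susceptible. The first was lower and the other higher in Susceptible, by -5.36 and 7.13 points, each with an adjusted p of 0.997 in the quasi-binomial model with limma-type moderation. The remaining tiles of smallest p, in Htr1a (25.9 ± 11.5% and 28.5 ± 3.89%) and Tph2 (90.9 ± 5.30% and 96.0 ± 1.93%), overlapped between groups.

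Other measures moved with some of these values. Over the 10 striatal projection neuron genes the mean body level was 50.8, 53.2, 56.6, 52.8 and 50.4% in Control and 52.5, 51.9, 59.3 and 61.4% in Susceptible (exact permutation p = 0.190), with 1 of the 10 genes lower in Susceptible. Susceptible 6 and 7 were highest, as they were in the Htr1b body and tile, and lowest in the Htr7 tile. Start levels of 6 astrocyte genes were 31.0% in Susceptible 7 and 40.7 to 47.1% in the other 8. All 6 of these genes had a lower mean in Susceptible, at starts and in bodies (exact permutation p = 0.222 and 0.206 for the list means). Over all genes, 52.8% of starts and 54.6% of bodies had a lower mean in Susceptible. The astrocyte body level was 71.7% in Susceptible 7, 77.4 to 77.7% in the other Susceptible libraries and 76.6 to 78.7% in Control. The part of these shifts in the Htr1b and Htr7 values was not tested.

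**Figure D4:**
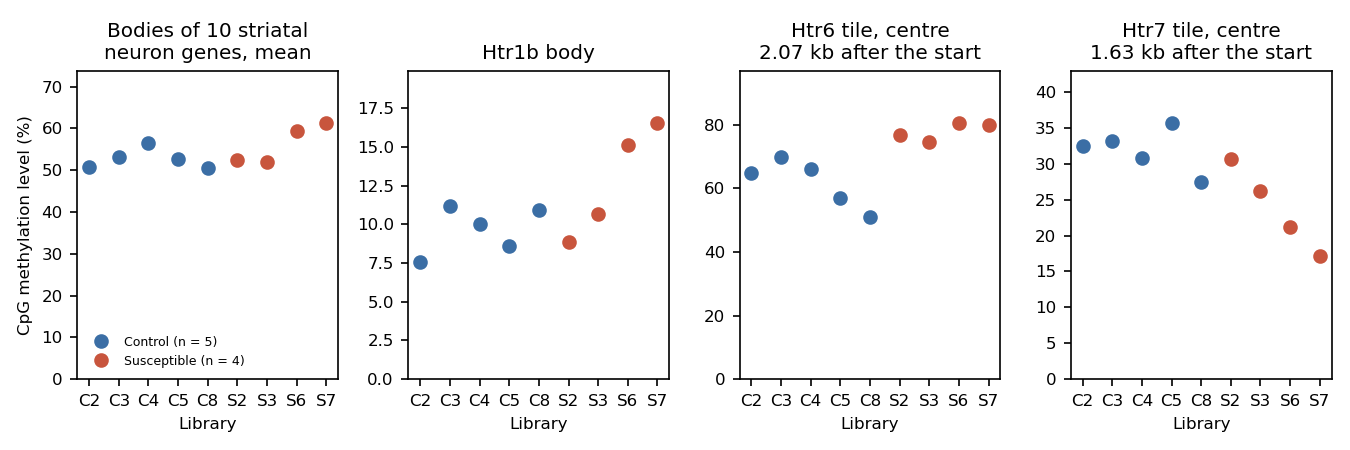
CpG methylation level in percent in each of the 9 libraries (C, Control; S, Susceptible) for the mean body of 10 striatal projection neuron genes and for the Htr1b body, the Htr6 tile and the Htr7 tile. Susceptible 6 and 7 have the highest striatal body levels, 59.3 and 61.4%, and the highest Htr1b body levels, 15.1 and 16.6%.

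The lists for other cells that a punch could hold were read in the same way. Body levels of 6 cortical projection neuron genes were 45.1 ± 2.88% and 44.3 ± 3.29%, of 7 oligodendrocyte genes 78.2 ± 2.45% and 78.0 ± 2.22%, of 6 astrocyte genes 77.9 ± 0.843% and 76.1 ± 2.94%, and of 5 microglia genes 81.3 ± 1.79% and 80.3 ± 1.37%. At starts the same lists read 27.9 ± 4.46% and 27.7 ± 4.88%, 65.4 ± 3.21% and 62.8 ± 2.08%, 44.1 ± 2.59% and 40.03 ± 6.05%, and 72.8 ± 1.92% and 71.6 ± 2.65%. In the same order, 4 of 6, 4 of 7, 6 of 6 and 4 of 5 genes were lower in Susceptible in bodies, and 2, 5, 6 and 4 at starts. The serotonin neuron genes Fev, Slc6a4 and Tph2 together read 13.8 ± 4.36% and 12.7 ± 2.96% at starts and 62.5 ± 1.151% and 61.3 ± 1.52% in bodies. At these starts Control 5 and 8 were highest, at 17.95 and 18.92%. Control 2, 3 and 4 read 12.06, 9.57 and 10.40%, each below the Susceptible mean. The higher Control mean at these starts therefore rests on Control 5 and 8.

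Beyond the 10 genes, 35 others of the pathway were read in the same fits. By the quasi-binomial model with limma-type moderation 0 of 35 were called at starts and 0 of 35 in bodies. Groups overlapped at all of them, where 1.89% of all starts and 1.34% of all bodies did not overlap. At an unadjusted p under 0.05, which 4.82% of all starts and 3.89% of all bodies reached, there was 1 start, Slc18a1, a vesicular transporter of peripheral cells, measured at its CpG-richer end (0.941 ± 0.590% and 2.05 ± 0.631%). In bodies there were 2, Tph1, the peripheral synthesis enzyme (77.5 ± 2.63% and 73.9 ± 1.30%), and Qdpr, which regenerates the cofactor of tryptophan hydroxylase (87.3 ± 1.52% and 84.2 ± 1.94%). The median difference was 0.213 points at starts and -0.382 points in bodies, against -0.103 and -0.151 points over all genes.

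Starts under 10% were found at 18 of the 35 and starts over 50% at 8, against 36.0% and 48.4% of all starts. Some of the 35 were measured at their CpG-richer end. With all libraries, the largest start differences were at Maob, a monoamine oxidase that degrades serotonin (44.0 ± 14.6% and 37.7 ± 11.6%), and Slc29a4, a low-affinity monoamine transporter (71.1 ± 9.87% and 67.7 ± 11.5%). Both differences lay within the spread of the libraries. Control 5 was highest at both, at 61.5% against 27.3 to 56.8% in the other Control libraries at Maob, and at 85.4% against 60.2 to 74.8% at Slc29a4. Maob was measured at its CpG-richer end, on as few as 65 calls in a library. With all libraries, the largest body differences were at Fev, the transcription factor that defines serotonin neurons (17.0 ± 4.46% and 13.1 ± 2.48%), and Htr2c, a receptor abundant in the striatum (79.1 ± 5.33% and 82.8 ± 1.29%). In each, 1 Control library lay apart. At Fev, Control 5 read 24.4% against 13.6 to 17.8% in the other Control libraries. At Htr2c, Control 2 read 70.8% against 77.8 to 84.3%. Htr2c had a start of 1.96 to 7.66% in Control and 2.06 to 11.6% in Susceptible. Only 5 of the 634 CpGs in its body and 1 of the 59 at its start were listed in all 9 libraries. The levels of the libraries at Htr2c therefore rest in part on different CpGs.

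The spread between animals was near that of other genes. The SD over the 9 libraries had a median of 3.04 points at the 10 starts against 3.19 over all starts, and of 2.65 points in the bodies against 2.21. Starts under 10% had SDs from 0.652 points at Htr1b to 4.21 at Htr7, where the median over all such starts was 1.11. Tph2, in the range of 10 to 50%, had an SD of 9.82 points against a median of 4.75 for starts in that range. With an SE of 6.46 points for the group difference, a difference of a few points was not detectable at the Tph2 start. At Htr1b and Htr6 that SE was 0.390 and 0.518 points.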

How the data were processed

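Whole-genome bisulfite sequencing of 9 nucleus accumbens samples was used, 5 Control and 4 Susceptible, 1 deposited file each. Per the labels' protocols, library preparation used the Pico Methyl-seq kit (Zymo). The submitters' processing notes name mm10, Bismark, Bowtie and Picard, without versions or roles. Per the file headers, each line gives a cytosine, its count of calls and the percent of them read as C. The authors deposited cytosines with 10 calls or more, 313475624 to 570984634 calls per library, which is not the full depth.

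Methylated calls were recovered as count times percent, and the strands of a CpG were added. Of 396389 listed CpGs inside RefSeq promoter sequences (GRCm38.p6), 396389 fell on CG, so these coordinates were used, counted from 1. Protein-coding and long noncoding RNA genes were used. A gene start was the gene bound on the side given by the RefSeq strand (26794 of 34328 genes). For the other 7534, Htr3a and Htr4 included, the CpG-richer end stood in. Exon and intron positions were not used here. Htr1d has a gene start about 1 kb before its CpG-dense one.

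Start windows, bodies of genes of 2000 bp or more, and 1-kb tiles needed 3 CpGs and 20 calls in every library. A quasi-binomial model compared the groups, with the dispersion moderated by the formulas of limma's squeezeVar (limma 3.58.1 in R 4.3.3; Python 3.11.15), kept at 1 or more, with Benjamini-Hochberg adjustment over all features. Exact permutation tests used all 126 splits and were two-sided. The scripts were tested on simulated data. Alternatives were limma on logit levels, no moderation, calls divided by strand disagreement, a replicate block, each library left out, other windows and minimums, and, chosen after seeing the data, leaving out Control 5 and 8.

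The 10 genes, the pathway and marker lists and the tests were chosen with earlier results of these data known. Named tiles were those of smallest p per gene, the 5 of largest difference among tiles whose groups did not overlap, and the lowest body tile of each gene. Of the pathway list, genes past the threshold, the 2 largest differences and Htr2c were named, and those at an unadjusted p under 0.05 were added after their values were seen. Cnp is in the pathway list and in the oligodendrocyte list.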

Additional observations from a re-analysis of the deposited data

Results flagged for a closer look

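Single libraries lay apart from the rest of their group in 8 of 82 groups of values checked. Chance would set apart about 1 in 20 independent groups. These groups overlap in part and include tiles picked by their values, so that rate is only a rough guide. The highest or lowest library was separated from the nearest other by most of the group's range. In the Htr3a body, Susceptible 7 read 78.8% and the other 3 read 85.4 to 86.5%. In the tile at the higher-coordinate end of Htr3a, chr9:48910001-48911000, Susceptible 7 read 45.5% against 67.6 to 70.4%. In the lowest Tph2 body tile, chr10:115171001-115172000, Susceptible 7 read 29.4% against 47.6 to 50.6%.

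Susceptible 6 was highest in the Htr6 tile chr4:139068001-139069000, at 61.6% against 47.0 to 47.4%, and in the Tph2 tile chr10:115129001-115130000, at 98.8% against 94.7 to 95.2%. In that same Tph2 tile, Control 3 read 100% against 86.6 to 90.0%. Control 8 read 100% in the Htr3a tile chr9:48906001-48907000, against 95.3 to 95.7%. Susceptible 3 read 87.2% in the Slc6a4 tile chr11:77011001-77012000, against 82.6 to 82.9%. What sets these libraries apart was not tested.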

How the results depend on the processing

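No start or body of the 10 genes passed the threshold under any alternative run, nor did any of the 14 named tiles that were followed. These were the tiles of smallest p per gene and the 5 of largest difference among tiles whose groups did not overlap. Tiles named only as the lowest of a gene body were not followed. The smallest adjusted p was 0.849 at starts, 0.860 in bodies and 0.902 in these tiles, with limma-type moderation. Over all genes, 0 starts were called, but 1 with calls divided by strand disagreement. Leaving out 1 library at a time gave 0 to 1 starts (1 without Control 4 and without Susceptible 7), 0 bodies, and 0 to 1 tiles (1 without Control 4). The receptor contrast at starts over all libraries was -14.2 points with 2000 bp on each side and -3.83 points without Control 5 and 8. Directions kept in 159 of 189 values at starts, 159 of 180 in bodies and 243 of 245 in tiles; the cause of the reversals below was not tested.

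The replicate block (numbers 2 and 3, the only ones shared) reversed the difference at the starts of Htr1a (-0.0582), Htr1b (0.0866), Htr3a (1.53), Htr6 (-0.463), Htr7 (0.567) and Tph2 (7.76), in the bodies of Htr1a (2.002), Htr3a (1.06), Htr7 (0.428), Slc6a4 (-0.601) and Tph2 (0.567), and in the Htr1b tile (-1.30), and called 0 features. The labels do not say that a number marks a shared litter or day. Deviations of same-numbered libraries correlated at 0.0231 and -0.0286, within the -0.0779 to 0.131 of the 18 other pairs. Whether same-numbered libraries share a litter or day was not tested, and 2 pairs are too few to tell.

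Without Control 5 and 8 the sign turned at the starts of Htr1a (-0.197), Htr3a (1.84), Htr6 (-0.264), Htr7 (1.38) and Tph2 (4.81) and in the bodies of Htr1a (2.83) and Slc6a4 (-0.394). Windows of 500 bp turned Htr3a (1.76), Htr7 (4.31) and Slc6a4 (-0.190), and of 2000 bp Htr1b (0.688) and Htr1d (1.52). CpGs listed in all 9 libraries turned the starts of Htr1a (-0.183), Htr1d (3.93) and Htr7 (0.469) and the bodies of Htr2a (-0.218) and Tph2 (0.300). The whole gene turned Htr1a (0.778) and Htr4 (0.652), and 20 calls per cytosine the Tph2 body (0.266); the Tph2 start could not be fitted at that minimum.

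Leaving out 1 library spanned 0 at the starts of Htr1a (-0.845 without Susceptible 6 to 0.802 without Susceptible 7), Htr3a (-2.28 without Control 4 to 0.430 without Control 5), Htr6 (-0.0880 without Susceptible 7 to 0.491 without Control 3) and Htr7 (-1.38 without Control 8 to 2.19 without Control 5). It also did so in the bodies of Htr1a (-2.94 without Control 4 to 1.84 without Control 5), Slc6a4 (-0.591 without Control 5 to 0.731 without Susceptible 7) and Tph2 (-0.470 without Susceptible 6 to 0.704 without Susceptible 7), and in the Htr1a tile (-0.396 without Control 4 to 6.76 without Control 8).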
